A study of Mus musculus with 3 samples.

Results

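The 9 genes described here encode enzymes that make or recover the deoxynucleotides from which DNA is built: Rrm1, Rrm2, Rrm2b, Tyms, Tk1, Dut, Dck, Dctd and Dtymk. They were chosen by name as the rows of the deposited gene table that carry these symbols. All 9 are among its 16977 genes, 0 are absent, and all 9 had a mean of at least 10 normalised reads. Of the 3 libraries, 2 came from cells infected with a lentivirus that carried a short hairpin RNA against Phf2 (shPHF2), and 1 came from cells infected with a lentivirus that carried a control hairpin (shControl). All 3 cultures were neural stem cells of C57BL/6J mouse embryos at embryonic day 12.5, grown with the growth factors EGF and FGF, and all were sequenced as total RNA without ribosomal RNA. PHF2 is a PHD-finger protein that removes methyl groups from lysine 9 of histone H3. The hairpin left part of the Phf2 transcript in place: it stood at 985 and 714 normalised reads in shPHF2 replicates 1 and 2, against 2593 in shControl. The labels do not say which hairpin sequences were used or whether the shPHF2 libraries share one.

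Ribonucleotide reductase converts ribonucleotides to deoxyribonucleotides and is the rate-limiting enzyme of the pathway. Its large catalytic subunit, RRM1, pairs with a small subunit that carries the radical needed for the reaction. That small subunit is RRM2 in cycling cells, where it accumulates in S phase and is destroyed later in the cycle, or RRM2B, which the tumour suppressor p53 induces and which supplies deoxynucleotides for DNA repair and for mitochondrial DNA outside S phase. Thymidine nucleotides need a branch of their own. DCTD and DUT each yield dUMP, TYMS methylates it to dTMP with a folate cofactor, and DTYMK phosphorylates dTMP further. TK1 and DCK recover thymidine and deoxycytidine from outside the cell. Dividing neural progenitors need these pools to copy their genome in each cycle.

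Transcripts of 8 of the 9 enzymes were lower in both shPHF2 libraries, and Rrm2b was not. The 8 averaged 37.1% to 61.4% of the shControl level. All 8 passed the test across genes and 0 members were called higher (limma on log2 values with a mean-variance trend, two-sided, Benjamini-Hochberg adjusted p under 0.05). Of all 14148 genes tested, 7.11% were called lower, 7.22% higher and 14.3% in either direction. In 41.8% of all genes tested both shPHF2 libraries lay below shControl, as they did for these 8. The median log2 fold change of the 9 members was -1.16, and that of all genes tested was -0.01. Values are normalised reads, which are reads scaled by a size factor for each library, unless a value per kilobase is named. The calls depend on the fit: without a filter on low values, with quantile normalization or without the trend, limma called 0 of all genes, and the adjusted p of the 8 members was 0.096 to 0.19. In bulk RNA, fewer cells in S phase and less RNA per cell cannot be told apart.

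**Figure D1:**
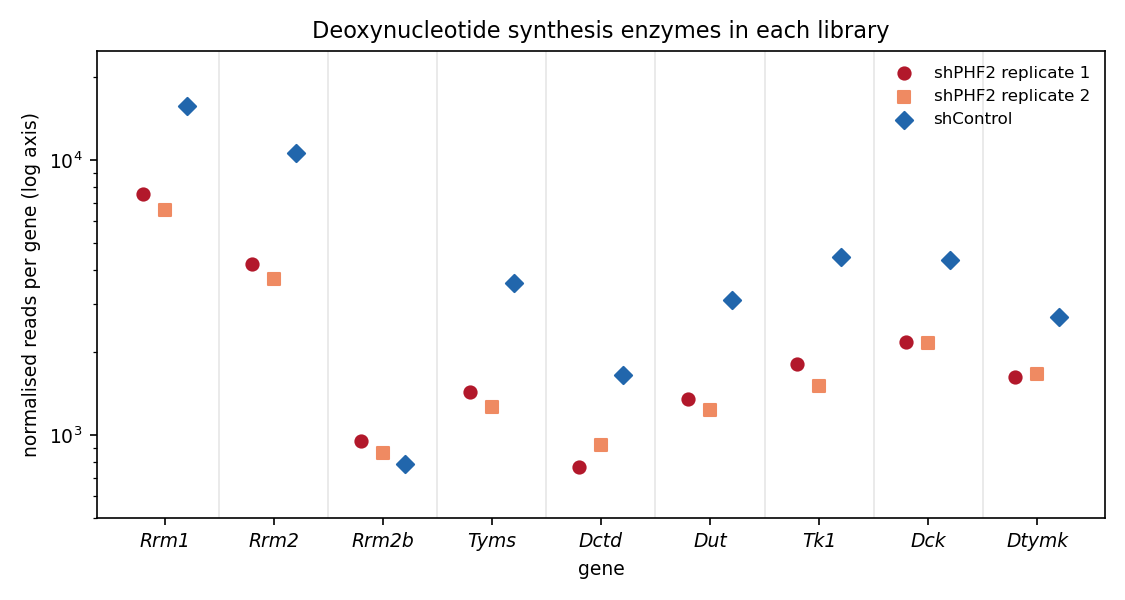
Normalised reads of the 9 enzymes (log axis) in shPHF2 replicate 1 (circles), shPHF2 replicate 2 (squares) and shControl (diamonds). The diamond lies above both other points for 8 genes, while for Rrm2b both shPHF2 points, at 953 and 862, lie above the diamond at 782.

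The libraries were deep enough for counting noise to be small for every member. Reads assigned to genes numbered 37171026 and 26302177 in shPHF2 replicates 1 and 2, against 32898139 in shControl. The fewest reads behind any member's value were 715, for Rrm2b in shPHF2 replicate 2, and the most were 15749, for Rrm1 in shControl. The shControl group has 1 library and hence no error of its own, and the test assumes that it varies like shPHF2. Of 10 neural stem and radial glia markers, all 10 were in the table, 3 were higher and 5 lower in both shPHF2 libraries, and their median log2 fold change was -0.12. Of these 10, Sox2 was called, higher at 0.68, and the others were not. Their summed levels, to which Nes and Vim gave the most, were 346604 and 389849 normalised reads in shPHF2 and 333735 in shControl.

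Of the reductase genes, Rrm2 and Rrm1 fell. Rrm2, the small subunit of S phase cells, had 4180.2 and 3701 normalised reads in shPHF2 replicates 1 and 2, against 10622 in shControl. Both shPHF2 libraries lay far below the control, at 39.4% and 34.8% of it. The shPHF2 mean was 3941 ± 339 (SD, n = 2) and the log2 fold change was -1.43 (limma, SE 0.18, adjusted p = 0.0065), the lowest of the 9. Rrm1, the large subunit that both forms of the enzyme need, had 7534 and 6572 normalised reads in shPHF2, against 15698 in shControl. Those levels were 48.0% and 41.9% of the control, and the log2 fold change was -1.16 (limma, SE 0.19, adjusted p = 0.011). Rrm2 occupies chr12:24708241-24714146 and Rrm1 chr7:102441695-102469771, both on the plus strand (GENCODE M21, GRCm38).

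Rrm2b, the p53-inducible small subunit, was not lower in shPHF2. It had 953 and 862 normalised reads in shPHF2 replicates 1 and 2, against 782 in shControl. Both shPHF2 libraries lay above the control, at 122% and 110.2% of it, and so did those of 41.4% of all genes tested. The shPHF2 mean was 907 ± 64.3 (SD, n = 2), and the log2 fold change of 0.21 (limma, SE 0.21, adjusted p = 0.55) was as large as its standard error and did not pass. Of the 50-base words in their principal transcripts, 11.0% of those in Rrm2b and 6.48% of those in Rrm2 also occur in transcripts of other genes, where the counting could have set reads aside. Rrm2b occupies chr15:37923952-37961318 (minus strand). An antisense transcript, Gm49085, shares 734 exonic bases with it on the other strand, and because no source states whether the counting used strand, reads of the pair cannot be told apart there.

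The ratio of Rrm2 to Rrm2b was lower in both shPHF2 libraries than in shControl. Per kilobase of the principal transcript, Rrm2 stood at 1906 and 1688 normalised reads in shPHF2, against 4843 in shControl. On the same scale Rrm2b stood at 209 and 189 in shPHF2, against 172 in shControl. The ratio of Rrm2 to Rrm2b per kilobase was 9.12 in shPHF2 replicate 1 and 8.93 in replicate 2, against 28.2 in shControl. Rrm2 remained the more abundant of the small subunit transcripts in every library, and its lead over Rrm2b was about the same in both shPHF2 libraries. Protein levels were not measured here. The ratio was lower by 1.63 and 1.66 on the log2 scale in shPHF2 than in shControl, a mean log2 change of -1.65 ± 0.02 (SD, n = 2). The changes of this and of the other ratios below are given as values and were not tested. Their SD covers the 2 shPHF2 libraries, each set against the same shControl library, and holds no spread of shControl. With 2 libraries against 1, an exact permutation test cannot give a p below 0.333.

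Within the S phase form of the enzyme, the 2 subunit transcripts fell by similar factors. The ratio of Rrm2 to Rrm1 per kilobase was 1.01 and 1.03 in shPHF2, against 1.23 in shControl, a log2 change of -0.28 ± 0.02 (SD, n = 2). The ratio of Rrm1 to Rrm2b per kilobase was 9.02 and 8.70 in shPHF2, against 22.9 in shControl. Levels per kilobase depend on the transcript length used, while the log2 changes of the ratios do not. With the length of all annotated exons, the Rrm2 to Rrm2b ratio was 14.5 and 14.2 in shPHF2, against 44.7 in shControl.

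**Figure D2:**
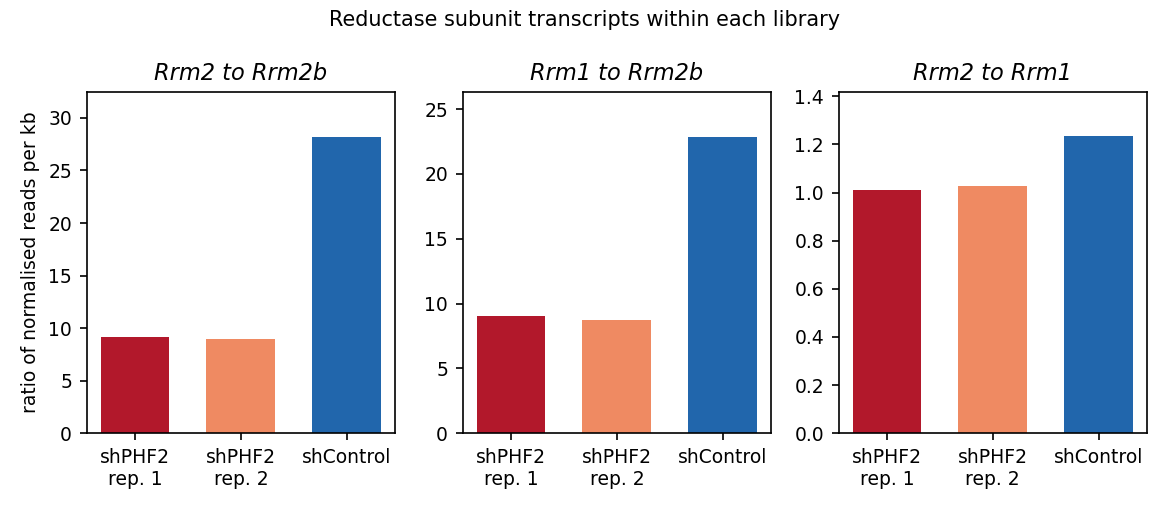
Ratios between reductase subunit transcripts within each library, as normalised reads per kilobase of the principal transcript; each bar is 1 library. Rrm2 to Rrm2b was 9.12 and 8.93 in the shPHF2 libraries and 28.2 in shControl, while Rrm2 to Rrm1 ranged from 1.01 to 1.23.

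The promoter windows of Rrm2, Rrm1 and Tyms are shown as examples from the lower members, and the first pair encodes the subunits of 1 enzyme. Each window runs from 250 bases before to 50 bases into the transcript, 5′ to 3′ on the gene's strand, as given by RefSeq for GRCm38.p6. Capitals mark CCAAT, the box bound by NF-Y, read on either strand. The windows are chr12:24708004-24708303 on the plus strand for Rrm2, chr7:102441445-102441744 on the plus strand for Rrm1 and chr5:30073576-30073875 on the minus strand for Tyms.
Rrm2: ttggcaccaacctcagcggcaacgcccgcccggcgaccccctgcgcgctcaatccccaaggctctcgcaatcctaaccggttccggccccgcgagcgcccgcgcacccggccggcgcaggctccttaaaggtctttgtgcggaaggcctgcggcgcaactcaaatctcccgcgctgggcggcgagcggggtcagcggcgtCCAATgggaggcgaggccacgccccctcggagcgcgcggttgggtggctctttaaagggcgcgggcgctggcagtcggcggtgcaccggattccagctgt
Rrm1: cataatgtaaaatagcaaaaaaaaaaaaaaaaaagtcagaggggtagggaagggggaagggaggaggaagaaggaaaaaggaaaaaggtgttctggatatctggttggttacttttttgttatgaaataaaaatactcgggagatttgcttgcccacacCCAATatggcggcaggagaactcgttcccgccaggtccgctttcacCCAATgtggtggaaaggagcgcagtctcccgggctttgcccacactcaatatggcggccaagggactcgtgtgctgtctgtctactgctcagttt
Tyms: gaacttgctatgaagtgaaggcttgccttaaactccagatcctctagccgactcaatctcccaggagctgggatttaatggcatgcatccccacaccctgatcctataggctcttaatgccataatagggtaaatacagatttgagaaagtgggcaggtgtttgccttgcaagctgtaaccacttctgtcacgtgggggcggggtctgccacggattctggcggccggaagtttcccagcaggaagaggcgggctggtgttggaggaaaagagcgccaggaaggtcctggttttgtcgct

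The Rrm2 window holds CCAAT once, 50 bases before the start, and the Rrm1 window holds it at 91 and 45 bases before the start. For each gene 1 window was used, the first listed, and other start sites were not searched. The window begins at chr8:48109708 for Dctd and at chr2:125247265 for Dut, inside the gene spans given below. RefSeq windows were found for 8 of the 9 members, all but Rrm2b. Of these, 4 hold CCAAT, the others being Dctd and Dtymk, and 37.9% of 27025 promoters of the same length do, or 38.7% of the 10296 that belong to tested genes. None of the 8 holds an E2F word, searched as TTTCCCGC, TTTCGCGC, TTTGCCGC or TTTGGCGC on both strands, and 2.32% of all promoters and 4.03% of those of tested genes do. Without the first T of these words, a search added after the windows were seen, 3 of the 8 windows match, those of Rrm1 at 67, Dtymk at 72 and Rrm2 at 235 bases before the start, as do 9.69% of all promoters and 17.3% of those of tested genes. TTTGAA, the core of the CHR element of genes expressed late in the cell cycle, was found in the Dck window alone, and in 18.1% of all promoters and 11.4% of those of tested genes. The searched words do not overlap each other in these windows, and the count says only which letters lie there.

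All 4 enzymes of the thymidylate branch fell, and Tyms had the lowest fold change of them. Thymidylate synthase makes dTMP from dUMP, and its transcript had 1438 and 1265 normalised reads in shPHF2 replicates 1 and 2, against 3566 in shControl. The shPHF2 levels were 40.3% and 35.5% of the control, and the log2 fold change was -1.40 (limma, SE 0.19, adjusted p = 0.0068). Tyms has a pseudogene copy, Tyms-ps, with its own row in the table. The copy had 398 and 294 normalised reads in shPHF2, against 919 in shControl, a log2 fold change of -1.42 (limma, SE 0.28, adjusted p = 0.018). Of all 50-base words in the principal Tyms transcript, 4.34% also occur in Tyms-ps and 11.0% in transcripts of any other gene, so how the counting divided reads between gene and copy is uncertain. The 2 rows moved by nearly the same factor.

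The enzymes that supply and use the substrate and product of Tyms were lower as well. Dut, which hydrolyses dUTP to dUMP and so keeps uracil out of DNA, had 1356 and 1236 normalised reads in shPHF2, against 3105 in shControl, a log2 fold change of -1.26 (limma, SE 0.19, adjusted p = 0.0085). Dctd, which deaminates dCMP to dUMP, had 767 and 919.9 normalised reads in shPHF2, against 1651 in shControl, a log2 fold change of -0.97 (limma, SE 0.22, adjusted p = 0.025). Both lay below the control in each shPHF2 library, and Dctd was 1 of 2 members, with Dtymk, that were less reduced in replicate 2 than in replicate 1. Dtymk, the thymidylate kinase that phosphorylates dTMP to dTDP, had the smallest fold change of the 8. It had 1627 and 1667 normalised reads in shPHF2, against 2684 in shControl, which is 60.6% and 62.1% of the control. Its log2 fold change was -0.70 (limma, SE 0.18, adjusted p = 0.038), and with GC content and length corrected for it no longer passed (limma, adjusted p = 0.051).

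Tyms and Dtymk catalyse consecutive steps, and their transcripts stood further apart in shPHF2. The ratio of Tyms to Dtymk per kilobase was 0.280 and 0.241 in shPHF2, against 0.421 in shControl, a log2 change of -0.70 ± 0.16 (SD, n = 2). In the same annotation Tyms occupies chr5:30058202-30073617 (minus strand), Dut chr2:125247190-125258608 (plus), Dctd chr8:48099092-48153233 (plus) and Dtymk chr1:93792576-93801934 (minus).

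Both salvage kinases fell. Tk1, the cytosolic thymidine kinase whose protein is made in S phase and destroyed at mitosis, had 1813 and 1505 normalised reads in shPHF2 replicates 1 and 2, against 4428 in shControl. Both shPHF2 libraries lay well below the control, at a mean of 37.5% of it, with a log2 fold change of -1.42 (limma, SE 0.19, adjusted p = 0.0068). Dck, which phosphorylates deoxycytidine and also deoxyadenosine and deoxyguanosine, had 2183 and 2157 normalised reads in shPHF2, against 4321 in shControl. The shPHF2 levels were 50.5% and 49.9% of the control, the closest pair among the members, with a log2 fold change of -0.99 (limma, SE 0.17, adjusted p = 0.013). The ratio of Tk1 to Dck per kilobase was 1.78 and 1.49 in shPHF2, against 2.19 in shControl. Tk1 occupies chr11:117815526-117826092 (minus strand) and shares 83 exonic bases with Afmid on the other strand, whose own level was 179 and 125 normalised reads in shPHF2, against 237 in shControl. Dck occupies chr5:88764996-88783281 (plus strand).

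**Figure D3:**
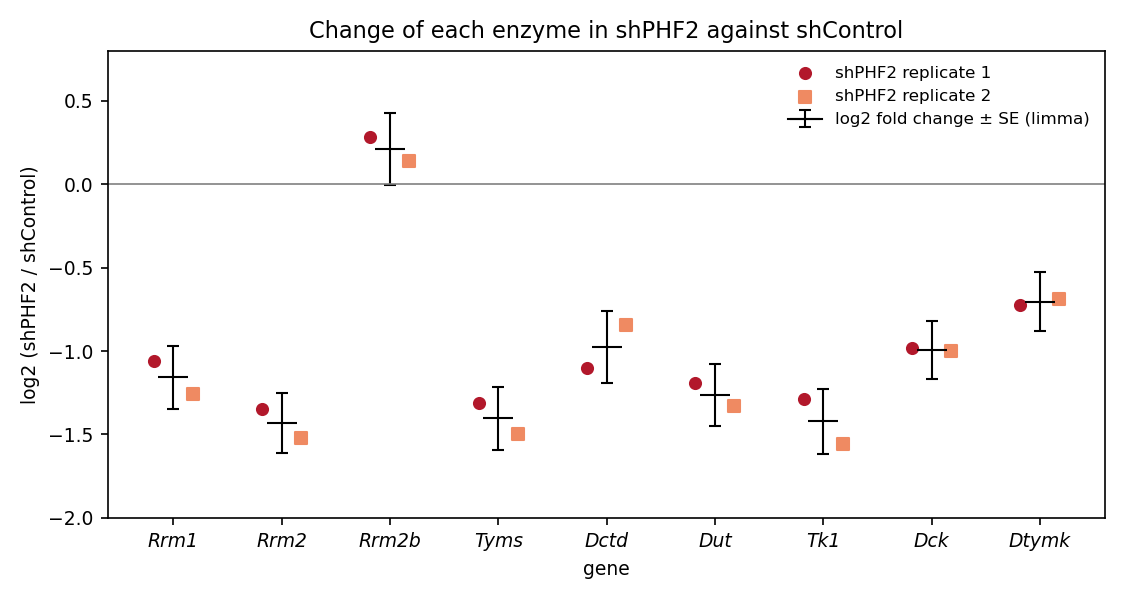
Log2 ratio of shPHF2 over shControl for each enzyme, with replicate 1 (circles), replicate 2 (squares) and the limma log2 fold change with its standard error (black). Rrm2, Tk1 and Tyms lie lowest, at -1.43, -1.42 and -1.40, Dtymk is at -0.70, and Rrm2b alone is above 0.

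Among themselves the members formed a graded series. Rrm2, Tk1 and Tyms had log2 fold changes of -1.43, -1.42 and -1.40, within a standard error of each other. Dut and Rrm1 followed at -1.26 and -1.16, Dck and Dctd at -0.99 and -0.97, and Dtymk at -0.70. Neighbours in that order differed by less than the sum of their standard errors, apart from Dtymk and Rrm2b; differences between members were not tested. The shPHF2 libraries differed by 0.02 to 0.27 on the log2 scale for a member, and the median absolute difference between them over all genes tested was 0.21. Replicate 2 had the lower value for 7 of the 9 members. Summed over all 9, the transcripts came to 21853 and 19885 normalised reads in shPHF2, against 46858 in shControl, or 46.6% and 42.4% of the control.

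The order of the levels changed little. Per kilobase of principal transcript, Rrm2, Rrm1, Dtymk and Tk1 were the most abundant in shPHF2, at means of 1797 ± 154, 1765 ± 170.2, 1642 ± 28.2 and 1152 ± 152 normalised reads (SD, n = 2), and the same 4 led in shControl, where Tk1 stood above Dtymk at 3075 against 2676. In shPHF2 the values of Rrm1 overlapped with those of Rrm2 and with those of Dtymk. In the middle stood Dck at 705 ± 6.10 and Dut at 665 ± 43.7 in shPHF2 (SD, n = 2), in the reverse order in shControl, at 1404 and 1592. Tyms at 427 ± 38.8 and Dctd at 402 ± 51.6 in shPHF2 (SD, n = 2) overlapped too, and Rrm2b was lowest in each library.

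The authors' deposited table also called these 8 members lower and 0 higher at an adjusted p under 0.05. Of the genes with an adjusted p in the authors' deposited table, 7.96% were called lower and 8.04% higher. In the authors' deposited table the adjusted p of the 8 lower members ran from 9.34e-08 for Rrm2 to 0.039 for Dtymk, and that of Rrm2b was 0.72 with a log2 fold change of 0.21. On the recovered reads, edgeR called the same 8 members lower, against 8.06% of all genes lower and 7.12% higher (15.2% in all), and so did DESeq2, against 7.43% lower and 7.66% higher (15.1% in all). With GC content and length corrected for, limma called 7 members lower, all but Dtymk, against 6.41% of all genes lower and 3.74% higher (10.1% in all). That correction left 524 genes higher and 899 lower, against 1021 higher and 1006 lower without it.

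Beyond these 9 enzymes, other genes of deoxynucleotide metabolism were called in part. Of 40 genes in 5 lists, 39 were tested, of which 12 were called lower and 1 higher, with a median log2 fold change of -0.31. Of all genes tested, 7.11% were called lower and 7.22% higher, the shares to set beside each list below. Cda, which deaminates cytidine and deoxycytidine, was not tested, at 8.34 and 10.9 normalised reads in shPHF2 and 7.97 in shControl. The difference between these lists and the 9 enzymes was not tested.

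Genes that feed TYMS with its folate cofactor had the lowest median of the 5 lists. Of 6 in this list, 5 were called lower and 0 higher, with a median log2 fold change of -1.34. Shmt1, the cytosolic serine hydroxymethyltransferase that makes this cofactor, had 1049.6 and 1106 normalised reads in shPHF2, against 3429 in shControl. It changed by -1.67 on the log2 scale, its mitochondrial counterpart Shmt2 by -1.28, the trifunctional folate enzyme gene Mthfd1 by -0.91 and the mitochondrial Mthfd2 by -2.41.

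Among the electron donors and regulators of the reductase, 1 of 6 was called higher and 1 lower. Glrx, which encodes glutaredoxin, one of the proteins that can return the reductase to its reduced state, had 1370 and 1751 normalised reads in shPHF2, against 561 in shControl, a log2 fold change of 1.46 (limma, SE 0.23, adjusted p = 0.0093). It was the only gene of the 5 lists to be called higher. The other donor, thioredoxin (Txn1), had 14230 and 30763 normalised reads in shPHF2, against 12310.3 in shControl. Replicate 2 was far above the other libraries and replicate 1 close to the control, and Txn1 did not pass (log2 fold change 0.77, limma, adjusted p = 0.23). Ccnf, the cyclin F gene whose protein directs the destruction of RRM2, fell to 2997 and 2188 normalised reads in shPHF2, against 4689 in shControl, a log2 fold change of -0.87 (limma, adjusted p = 0.038). Txnrd1, Gsr and Ahcyl1 had log2 fold changes of -0.45, -0.31 and -0.13 and did not pass.

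Mitochondrial salvage kinases and dNTP breakdown were mostly not called. Tk2 and Dguok, the mitochondrial counterparts of TK1 and DCK, had log2 fold changes of 0.30 and 0.42 and did not pass (limma, adjusted p = 0.42 and 0.36). Tk2 stood at 633 and 678 normalised reads in shPHF2, against 531 in shControl. Both shPHF2 libraries thus lay above the control, as they did for Rrm2b and for 41.4% of all genes tested. In the list of salvage, mitochondrial kinases and transport, 2 of 8 tested genes were called lower and 0 higher: the nucleoside transporter gene Slc29a1 at -0.89 and the mitochondrial pyrimidine nucleotide carrier gene Slc25a36 at -0.85. Adenosine deaminase (Ada) had 123 and 130.2 normalised reads in shPHF2, against 302 in shControl, and missed the threshold (log2 fold change -1.25, limma, adjusted p = 0.052). Samhd1, which breaks down dNTPs and is best known for doing so outside S phase, had 645 and 615 normalised reads in shPHF2, against 801 in shControl, and did not pass (log2 fold change -0.35, limma, adjusted p = 0.34).

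Of 9 genes for dNTP breakdown and pool cleaning, 1 was called lower and 0 higher, against 7.11% and 7.22% of all genes tested. The gene called lower was Dctpp1, which hydrolyses dCTP and its modified forms. It had 1283 and 1584 normalised reads in shPHF2, against 3273 in shControl, a log2 fold change of -1.20 (limma, adjusted p = 0.012). Of 10 nucleotide kinase genes, 3 were called lower and 0 higher. Ak4 and Nme1 were among them, with log2 fold changes of -0.78 and -0.72, while Cmpk1, Guk1 and Nme2 had -0.17, -0.13 and -0.39 and did not pass. Nme1 and Nme2 are close copies whose reads the counting could have split.

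**Figure D4:**
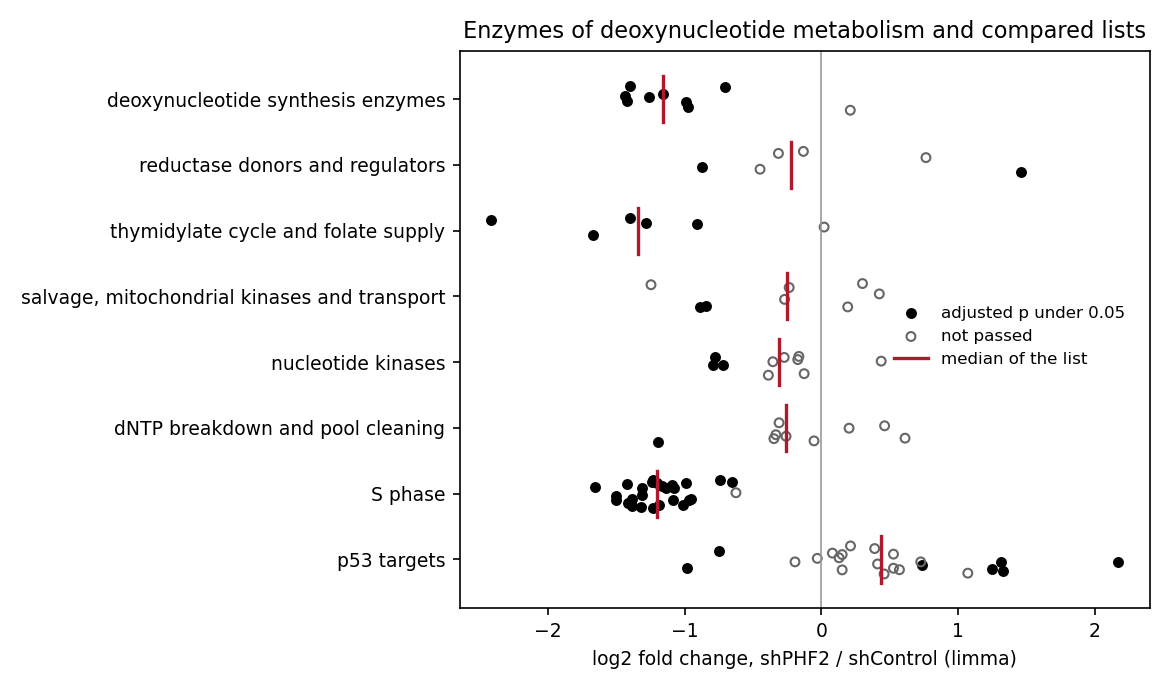
Log2 fold changes of shPHF2 over shControl for the 9 enzymes, 5 other lists of deoxynucleotide metabolism, S phase genes and p53 targets; filled points had an adjusted p under 0.05, open points did not, and the red line is the median of the list. The medians of the 9 enzymes, the folate list and the S phase list lie at -1.16, -1.34 and -1.20, and that of p53 targets at 0.44.

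The S phase and p53 lists give the setting for Rrm2 and Rrm2b. Of 27 other S phase genes, 26 were called lower and 0 higher, with a median log2 fold change of -1.20 and a range from -1.65 to -0.62. The 8 lower members had a median of -1.21 and a range from -1.43 to -0.70, inside that range. The S phase genes with the largest changes were the cyclin E2 gene Ccne2 at -1.65, the single-strand DNA binding protein gene Rpa2 at -1.50, the polymerase epsilon gene Pole at -1.50 and the helicase component gene Cdc45 at -1.42. Rfc3, chosen to be named once its value was known, did not pass, at -0.62.

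Of 22 p53 targets other than Rrm2b, 5 were called higher and 2 lower, against 7.22% and 7.11% of all genes tested. Their median log2 fold change was 0.44. That median was 0.18 in replicate 1 and 0.63 in replicate 2. Those called higher with the largest changes were the membrane protein gene Perp at 2.17, the stress-induced Gadd45a at 1.33, the pro-apoptotic Bbc3 at 1.31 and the anti-proliferative Btg2 at 1.25. With GC content and length corrected for, 2 targets were called higher instead of 5. Zmat3 and 9630033F20Rik, the table's name for Tigar, were called lower at -0.99 and -0.75. The classical targets Cdkn1a and Mdm2 had 0.73 and 0.08 and did not pass (limma, adjusted p = 0.11 and 0.81). These last 4 were chosen to be named once their values were known. Rrm2b at 0.21 lay among the 15 targets that were not called, between Mdm2 and Cdkn1a.

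The genes whose pattern over the 3 libraries was most like that of Rrm2 were Tfap4, Chek1, Naa50, Usp1 and Lin9. Likeness was the distance between genes in the pair of log2 ratios to shControl, over 11474 genes with a mean of at least 100, and these 5 lay within 0.016 to 0.048 of Rrm2. Chek1, the checkpoint kinase gene, had 864 and 779 normalised reads in shPHF2, against 2204 in shControl. For Rrm2b the nearest were Ptcd1, Lix1l, Gtf2ird1, Tcea2 and Iqcc, at 0.0024 to 0.015. A distance under 0.2 was found for 71 genes around Rrm2 and for 988 around Rrm2b, so many genes of these libraries share the pattern of Rrm2b.

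Few markers of other cell types were called. Neuron markers, of which 9 of 10 were in the table, summed to 41133 and 40391 normalised reads in shPHF2, against 61861 in shControl. Map2 made up most of that sum in each library, and the median log2 fold change over these 9 was 0.33, with 3 higher and 3 lower in both shPHF2 libraries and 0 called. Of 7 astrocyte markers 1 was called, S100b, higher at 1.54, and 5 were higher and 2 lower in both shPHF2 libraries. The list summed to 8863 and 7608 normalised reads in shPHF2, against 9846 in shControl. Its median log2 fold change of 1.42 was that of Aldh1l1, at 152 and 1009 normalised reads in shPHF2 replicates 1 and 2, against 146 in shControl. Oligodendrocyte lineage markers summed to 64834 and 84165 in shPHF2, against 69620 in shControl, most of it Olig1 and Olig2, with 0 called. Of the microglia markers 3 of 8 were in the table, of the endothelial markers 7 of 7 and of the fibroblast markers 5 of 6. Their sums were low: 34.2 and 14.5 normalised reads in shPHF2 against 11.0 in shControl for microglia, 359 and 217 against 294 for endothelium, and 15.0 and 16.9 against 7.97 for fibroblasts. Listed at 0 were Nefl, Aqp4, Aif1, Tmem119 and Col1a2 in shControl, Cldn5 in both shPHF2 libraries, and Mog and Col1a1 in shPHF2 replicate 2. The part of these cell types in the lower enzyme transcripts was not tested.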

How the data were processed

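RNA sequencing libraries of 2 shPHF2 cultures and 1 shControl culture were analysed from the authors' deposited gene table. The submitters' processing notes name HISAT2, HTSeq and DESeq2 and the build mm10; their versions, the annotation and the strand setting are not given there. The deposited values are a signal of size-factor normalised reads, per the file headers. All of them (100%) were whole multiples of 1 step per column, within 0.001, so whole reads were recovered. The deposited table also holds the authors' log2 fold change, Wald score, p-value and adjusted p-value, empty for 4280 genes. The 4 rows that name no gene were left out, and the genes held 38.5% of reads in both shPHF2 libraries and 38.6% in shControl. The reads left out differed: 20.5% were too low in alignment quality in shPHF2 replicate 2, against 15.9% in replicate 1 and 17.0% in shControl. Reads outside annotated features made up 38.7% in replicate 2, against 44.0% in replicate 1 and 42.7% in shControl. No library column was left unused (0 columns).

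limma 3.58.1 (lmFit, eBayes with trend; R 4.3.3) was run on log2(value + 1) for 14148 genes whose mean reached 10, with Benjamini-Hochberg adjustment. The design has 1 residual degree of freedom and 6.94 prior ones. The shPHF2 libraries are described as biological replicates, and differed beyond counting noise (chi-square per degree of freedom 58.9, over 14185 genes). Fold changes are on this scale. edgeR 4.0.16 and DESeq2 1.42.0 on the recovered reads, other pseudocounts, filters and scalings, and a spline correction for GC content and transcript length were the alternatives. On simulated libraries of this design the test missed part of the changed genes and its share of false calls exceeded the nominal one. Those libraries held far fewer changed genes than the test called in these data, so the size of neither share carries over to these calls. Of the genes, 98.9% matched GENCODE M21, directly or through RefSeq synonyms. Levels per kilobase use the APPRIS principal transcript.

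The members and lists were chosen with earlier results of these data known. All 9 members and any gene of the 5 pathway lists may be named, and of the S phase and p53 lists the 4 largest changes past the threshold. Some genes of these lists are not reported here by name. The p-values cover these libraries only. In limma their error comes from the spread between the shPHF2 libraries and from a prior drawn from all genes tested. It holds no spread of shControl.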

Additional observations from a re-analysis of the deposited data

How the results depend on the processing

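The log2 fold changes of the members kept their direction under all alternatives run. Of 10 alternatives with a test, 7 called 7 of the 8 lower members, and 6 called Dtymk, which was at -0.66 with the GC and length correction. Rrm2b ranged from 0.14 to 0.28, with an adjusted p of 0.34 to 0.72, and was never called. The remaining 3 alternatives, no filter on low values, quantile normalization and limma without the trend, called 0 genes of all genes tested and therefore 0 in each list: 3893, 3700 and 3300 genes had an unadjusted p under 0.05 there, among them 8 of the 9 members in each, while edgeR called 2147 genes and DESeq2 1969. With no filter or no trend, the log2 fold changes stayed at -1.16 for Rrm1, -1.43 for Rrm2, -1.40 for Tyms, -1.42 for Tk1, -1.26 for Dut, -0.99 for Dck, -0.97 for Dctd and -0.70 for Dtymk, with adjusted p of 0.14 to 0.19. With quantile normalization they were -1.05 for Rrm1, -1.31 for Rrm2, Tyms and Tk1, -1.19 for Dut, -0.88 for Dck, -0.94 for Dctd and -0.62 for Dtymk, with adjusted p of 0.096 to 0.13. The cause was not tested. Of the p53 targets, DESeq2 called 1 lower instead of 2, and the GC and length correction called 2 higher instead of 5.

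Leaving out a shPHF2 library leaves 1 library against 1 and no test, so no counts were made. The log2 ratio was then -1.52 to -1.35 for Rrm2, -1.26 to -1.06 for Rrm1 and 0.14 to 0.28 for Rrm2b, and that of the Rrm2 to Rrm2b ratio -1.66 to -1.63. With a pseudocount of 5 the log2 change of the ratio moved by less than its spread between the shPHF2 libraries. Per length it is the same by construction, because the lengths cancel. No paired analysis was possible because the shControl group has 1 library and shares fewer than 2 replicate numbers with shPHF2.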
